A study of Mus musculus with 6 samples.

Results

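The genes described here are 36 interferon-stimulated genes, among them the interferon-inducible GTPases of the Gbp and Irg families, taken by name from a deposited table of 51165 rows. Each name occurred in the table, and 35 of the 36 had enough reads to be tested. RNA of sinusoidal endothelial cells, which form the porous lining of the capillaries of the liver, was sequenced. There were 3 libraries from mice of the genotype labelled NICeCA and 3 from wild type mice, all of strain C57BL/6 and 7 to 8 weeks old. Both genotypes received tamoxifen by intraperitoneal injection, which per the labels switches on Notch signalling in the NICeCA mice. The labels name neither the promoter that drives the recombinase nor the animals behind each library, so a p-value here reflects how much the libraries vary, part of which may be technical. The NICeCA libraries are numbered 1, 2 and 3 and the wild type libraries 1, 3 and 4.

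Type I interferons bind a receptor whose kinases phosphorylate Stat2. With Irf9 it takes part in a complex that binds the interferon-stimulated response element (ISRE), a tandem GAAA repeat in the promoters of antiviral genes. Type II interferon, IFN-gamma, acts mainly through the gamma-activated site (GAS) and through Irf1, and it is the classical inducer of the Gbp and Irg GTPases. In the liver, sinusoidal endothelial cells meet microbial products from portal blood and are known to express many interferon-stimulated genes.

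The promoter letters of 6 members are shown because the ISRE core is the feature that most of the members with a promoter entry share. The core searched was GAAA, any 2 bases and GAAA again, on both strands, overlapping matches included, in windows of 250 bases before to 50 after each gene start (RefSeq, GRCm38.p6). Of the 36 members 27 had a window, and 17 of these 27 (63%) held the core, against 3.99% of the 27025 genes in the table. The matches included Gbp2, Gbp3, Gbp7 and Irgm1 among the GTPases and Isg15, Ifit1, Ifit3, Oas1a, Oas3 and Rsad2 among the antiviral genes. The core was absent from the windows of Ifit2, Oasl1, Oasl2, Irf1, Irf7, Irf9, Ifi44, Ifi35, Xaf1 and Cmpk2. Oas2, Mx1, Mx2, Usp18, Dhx58, Iigp1, Parp14, Rtp4 and Zbp1 had no window. The GAS letters TTCNNNGAA were in 7 of the 27 (25.9%), against 9.55% of all genes. The 120 bases before the start of 5 members, and 30 bases of 9930111J21Rik1 just after its start, read 5′ to 3′ along the gene, with every match to the core in capitals (a TTTC pair is the same core on the other strand).
Isg15, chr4:156200819-156200938, minus strand: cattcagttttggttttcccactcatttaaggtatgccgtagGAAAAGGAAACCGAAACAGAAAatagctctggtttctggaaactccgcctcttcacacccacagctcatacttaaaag
Ifit1, chr19:34640769-34640888, plus strand: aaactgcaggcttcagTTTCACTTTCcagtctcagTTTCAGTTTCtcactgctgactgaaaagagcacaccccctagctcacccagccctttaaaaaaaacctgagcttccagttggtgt
Oas3, chr5:120777660-120777779, minus strand: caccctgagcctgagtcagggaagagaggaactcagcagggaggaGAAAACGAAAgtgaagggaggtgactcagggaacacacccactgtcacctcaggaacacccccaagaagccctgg
Trim30a, chr7:104465194-104465313, minus strand: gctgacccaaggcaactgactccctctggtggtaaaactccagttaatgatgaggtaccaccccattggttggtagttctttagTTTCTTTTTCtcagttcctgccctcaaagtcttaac
Gbp2, chr3:142620543-142620662, plus strand: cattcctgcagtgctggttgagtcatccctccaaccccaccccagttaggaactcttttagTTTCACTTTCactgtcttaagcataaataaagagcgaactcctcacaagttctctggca
9930111J21Rik1, chr11:48979336-48979365, minus strand: cagaggtctgGAAATAGAAActaaatctta
Isg15 held 3 overlapping cores from 78 bases before its start, and Ifit1 held 2 separate ones. Promoters of members with a high log2 fold change (Oas3, 9930111J21Rik1) and of members near 0 (Gbp2) both held the core.

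Library totals ran from 26254649 to 30034191 counts. The Notch target Hey1, a repressor that checks the genotype, was at 24.5, 33.1 and 39.3 CPM (counts scaled to a common library total with TMM factors) in NICeCA 1, 2 and 3, against 5.19, 6.06 and 6.31 CPM in wild type 1, 3 and 4. Notch1 had a log2 fold change of 0.36 ± 0.15 (SE) with no overlap between genotypes. Sinusoidal and pan-endothelial markers, 10 genes, summed to 13390 to 21420 CPM in NICeCA and 23570 to 24730 CPM in wild type libraries. Neutrophil markers summed to 2862 to 15200 CPM in NICeCA, the highest in NICeCA 3, and 132 to 2621 CPM in wild type. Kupffer cell markers summed to 170 to 1406 CPM in NICeCA and 121 to 1878 CPM in wild type, the highest in wild type 4. T and NK cell markers summed to 59.1 to 198 CPM in NICeCA and 13.4 to 93.9 CPM in wild type. In bulk libraries fewer cells of a type and less RNA per cell cannot be told apart, and the part of these cells in the results below was not tested.

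None of the 35 interferon-stimulated genes tested passed edgeR's quasi-likelihood test over all genes, though most had a positive log2 fold change in NICeCA against wild type libraries. A positive log2 fold change was found in 30 of the 35, against 48.4% of all 19795 genes tested, and the median was 0.23, against -0.014 over all genes. This rests in large part on wild type 4, without which 22 of 35 were positive (49% of all genes) and the median was 0.047. The largest values belonged to Oas3 and Oas2, double-stranded RNA sensors that make the 2'-5' oligoadenylate signal, and to the Mx1 GTPase. The 5 tested Gbp and Irg genes had log2 fold changes between -0.15 and 0.09. This range holds for these 5 members only. The 14 other interferon-inducible GTPases ran from -0.35 to 1.13, with a median of 0.23, 10 positive and 4 negative. 9930111J21Rik1, at 1.17, was counted in neither set.

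At an adjusted p under 0.05, edgeR called 0 of 35 members higher (0.0253% of all genes) and 0 lower (0.0202%). The member nearest the threshold was 9930111J21Rik1 (adjusted p = 0.0509, edgeR). At an unadjusted p under 0.05, 9 members were higher (9.12% of all genes) and 0 were lower (7.38%). In 11 members the NICeCA libraries all lay above the wild type libraries (11.6% of all genes), and in 0 all below (11.8%). DESeq2 called 7 members higher, namely 9930111J21Rik1, Oas2, Oas3, Zbp1, Trim30a, Mx1 and Irf7 (3.71% of all genes), and 0 lower (1.89%), and limma voom called 0.

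**Figure D1:**
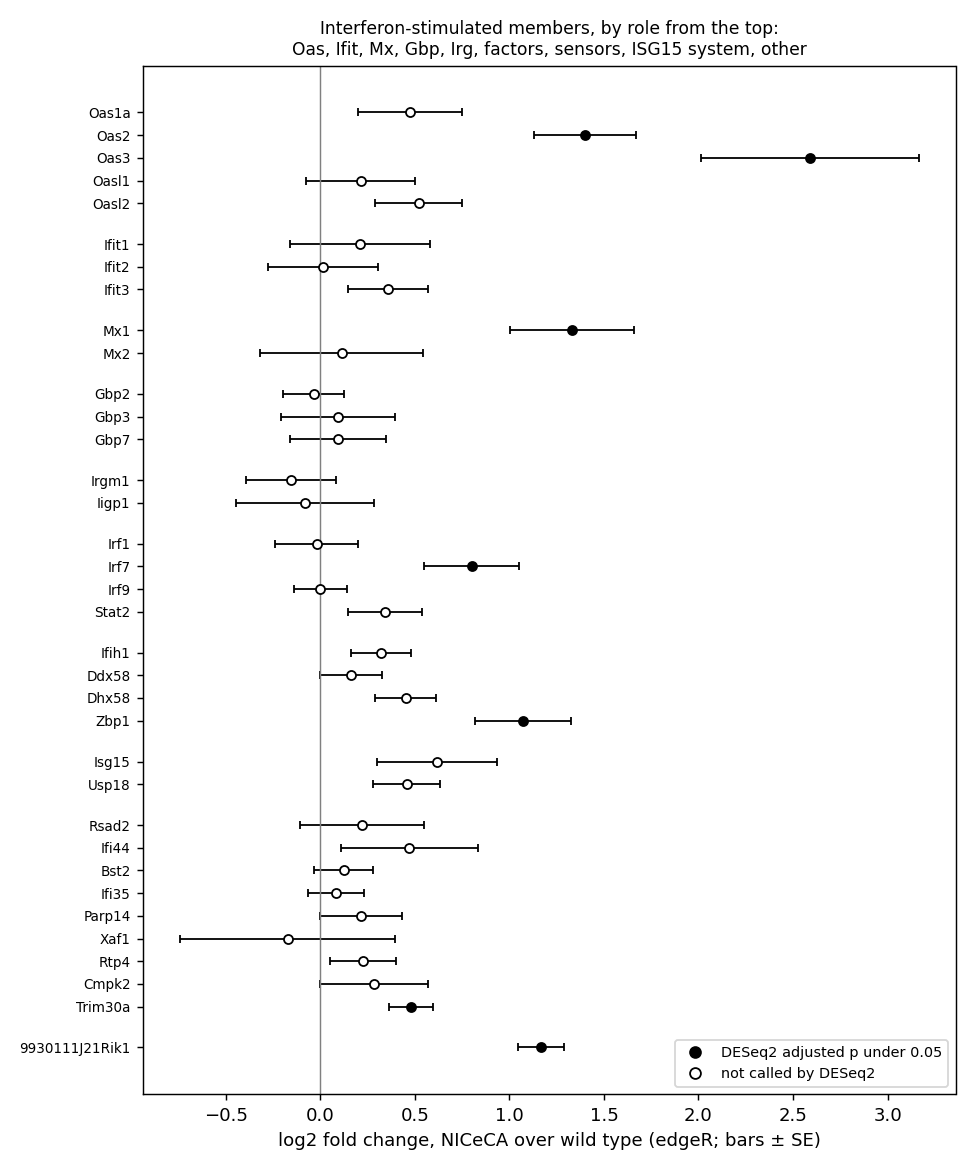
Log2 fold changes of the 35 tested members, NICeCA over wild type, from edgeR with bars of ± SE, grouped by role from the Oas genes at the top; filled points mark the 7 members DESeq2 called. Oas3 stands farthest right at 2.59, and the Gbp and Irg genes lie around 0.

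The Oas enzymes make 2'-5' oligoadenylates, which activate RNase L and so degrade RNA in infected cells. Oas2 was at 76.1, 66.3 and 63.7 CPM in NICeCA 1, 2 and 3, against 18.6, 38.3 and 21.2 CPM in wild type 1, 3 and 4. The groups did not overlap, with a log2 fold change of 1.40 ± 0.27 (SE; edgeR adjusted p = 0.139, DESeq2 adjusted p = 0.000133). Oas3 was at 54.1, 71.9 and 123 CPM in NICeCA 1, 2 and 3, against 14.1, 4.60 and 22.7 CPM in wild type 1, 3 and 4. Its lowest NICeCA library stood above its highest wild type library, and the value was highest in NICeCA 3. Neutrophil markers summed to 2862, 4051 and 15200 CPM in NICeCA 1, 2 and 3, against 876, 132 and 2621 CPM in wild type 1, 3 and 4. The 6 libraries thus had the same order for Oas3 and for neutrophil markers, and the part of these cells in the Oas3 values was not tested. Its log2 fold change was 2.59 ± 0.57 (edgeR adjusted p = 0.161, DESeq2 adjusted p = 4.37e-05), and without NICeCA 3 the log2 fold change was 2.19 and DESeq2 did not call it. Oas2 and Oas3 are neighbours on chromosome 5, with 3213 bases between them in the deposited coordinates.

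Oasl2, an Oas-like protein with ubiquitin-like domains, was at 183, 191 and 174 CPM in NICeCA 1, 2 and 3, against 148, 152 and 82.0 CPM in wild type 1, 3 and 4. The groups did not overlap, yet the adjusted p was 0.317 in edgeR and 0.256 in DESeq2. Oasl1, its neighbour at 10944 bases, known to restrain translation of Irf7, was at 71.8, 72.1 and 73.4 CPM in NICeCA 1, 2 and 3, against 95.7, 45.6 and 45.7 CPM in wild type 1, 3 and 4. The NICeCA libraries lay close together within a wide wild type range. Without wild type 1 its log2 fold change was 0.66 and DESeq2 called it, against 0.22 ± 0.29 and no call with all libraries. Oas1a averaged 40.4 ± 11.7 CPM in NICeCA and 29.1 ± 9.17 CPM in wild type (SD, n = 3 each), with overlapping groups. Its reads can be shared with near-identical Oas1 copies such as Oas1g.

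The Ifit proteins bind viral RNA ends, and the 3 members are a cluster on chromosome 19. Ifit3 was at 374, 325 and 251 CPM in NICeCA 1, 2 and 3, against 262, 292 and 188 CPM in wild type 1, 3 and 4. Ifit1 averaged 113 ± 26.0 CPM in NICeCA and 98.0 ± 49.6 CPM in wild type, and Ifit2 386 ± 110 CPM in NICeCA and 382 ± 112 CPM in wild type (SD, n = 3 each). All 3 genes overlapped between genotypes. Their log2 fold changes were 0.36 ± 0.21 for Ifit3, 0.21 ± 0.37 for Ifit1 and 0.015 ± 0.29 for Ifit2. Ifit1 lies within Gm14446 on the opposite strand, which held 65 to 169 counts, and Ifit3 has a near-identical copy, Ifit3b.

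Mx1 and Mx2 are dynamin-like antiviral GTPases, and laboratory strains such as C57BL/6 carry defective alleles of both. Mx1 was at 7.16, 8.85 and 4.38 CPM in NICeCA 1, 2 and 3, against 3.35, 2.76 and 1.98 CPM in wild type 1, 3 and 4. The groups did not overlap, with a log2 fold change of 1.33 ± 0.33 (edgeR adjusted p = 0.179, DESeq2 adjusted p = 0.00941). Mx2 was at 61.4, 73.2 and 49.9 CPM in NICeCA 1, 2 and 3, against 101, 40.2 and 29.7 CPM in wild type 1, 3 and 4. Wild type 1 held the highest Mx2 value of the 6 libraries, and without that library the log2 fold change was 0.81 and DESeq2 called it, against 0.11 ± 0.43 and no call with all libraries.

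**Figure D2:**
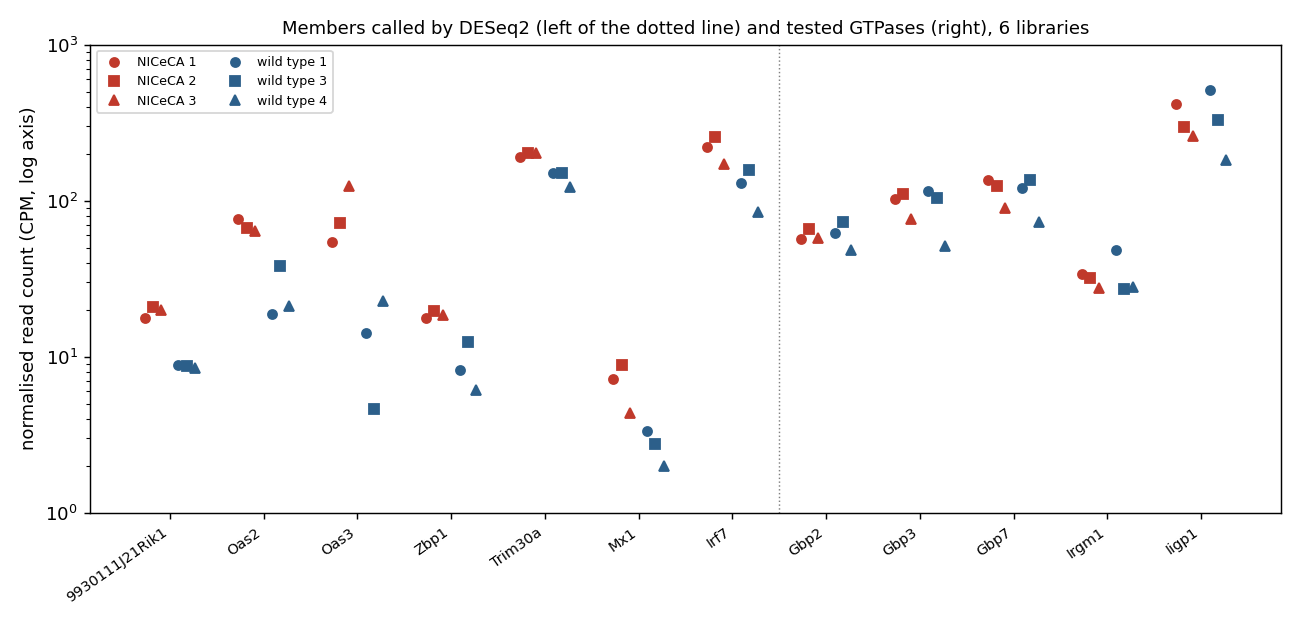
Normalised read counts (CPM, log axis) in each library, NICeCA in red and wild type in blue, for the 7 members called by DESeq2 and the 5 tested GTPases. The red points lie above the blue ones in each of the 7 members left of the dotted line, and the groups overlap in each GTPase to its right.

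Guanylate-binding proteins (Gbp) and immunity-related GTPases (Irg) attack the vacuoles of intracellular pathogens. Gbp2 was at 56.4, 65.5 and 57.6 CPM in NICeCA 1, 2 and 3, against 62.4, 73.1 and 48.2 CPM in wild type 1, 3 and 4. Gbp3 averaged 96.4 ± 17.6 CPM in NICeCA and 90.4 ± 34.4 CPM in wild type, and Gbp7 117 ± 24.1 CPM in NICeCA and 110 ± 32.5 CPM in wild type (SD, n = 3 each). The 3 genes are neighbours on chromosome 3, and the groups overlapped in each. Iigp1, an Irg protein that coats parasite vacuoles, was at 416, 295 and 260 CPM in NICeCA 1, 2 and 3, against 513, 329 and 183 CPM in wild type 1, 3 and 4. Both the highest and the lowest Iigp1 value were wild type. Its log2 fold change was -0.08 ± 0.37, which became 0.33 without wild type 1 and -0.38 without wild type 4.

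Irgm1, a regulator of the other Irg proteins, was at 33.6, 31.9 and 27.5 CPM in NICeCA 1, 2 and 3, against 48.4, 27.1 and 27.9 CPM in wild type 1, 3 and 4. Igtp, a close relative, was listed at 0 to 2 counts per library and could not be tested. The deposited table places both on scaffolds outside the numbered chromosomes. Gnb2l1, a ribosome-bound protein that every cell uses, is on the scaffold of Irgm1 and was listed at only 63 to 103 counts per library, so counts of genes placed there may be incomplete.

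9930111J21Rik1, a protein-coding gene model on chromosome 11 (48946150 to 48979381 in the deposited table) for which the table gives no family, had the narrowest range among wild type libraries of the 35 members. It was at 17.8, 20.7 and 19.8 CPM in NICeCA 1, 2 and 3, against 8.79, 8.74 and 8.44 CPM in wild type 1, 3 and 4. The wild type libraries lay close together, although wild type 4 was low for most other members. The log2 fold change was 1.17 ± 0.12, or 2.25-fold (edgeR adjusted p = 0.0509, DESeq2 adjusted p = 4.01e-10). In edgeR the adjusted p was 0.0398 with a robust prior and 0.0244 without a filter. It was 0.0446 with genes kept at a mean of at least 1 CPM. Other edgeR settings gave 0.0528 with RLE scaling, 0.0547 with upper-quartile scaling and 0.613 with the replicate number as a block. In the edgeR sets without a library it ran from 0.0645 to 0.368, and limma voom gave 0.0537. The gene overlaps Psme2b by 261 bases on the same strand, and Psme2b held 1852 to 2673 counts per library, against 228 to 612 for 9930111J21Rik1. How reads of the overlap were assigned is not given in the sources used here. Its related neighbour 9930111J21Rik2, listed here among the other interferon-inducible GTPases, averaged under 1 CPM in both genotypes. 9930111J21Rik1 itself was kept out of the Gbp and Irg groups, so the values given for those groups do not cover it.

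Set against each other within a library, the antiviral families stood relatively higher than the 5 tested Gbp and Irg genes in the NICeCA libraries. For each gene the log2(CPM + 1) was centred on its mean over the 6 libraries, and the median over the genes of a family was taken. The 10 Oas, Ifit and Mx genes had medians of 0.43, 0.32 and -0.05 in NICeCA 1, 2 and 3, against 0.11, -0.29 and -0.69 in wild type 1, 3 and 4. The 5 tested Gbp and Irg genes had medians of 0.19, 0.12 and -0.23 in NICeCA 1, 2 and 3, against 0.36, 0.20 and -0.59 in wild type 1, 3 and 4. Both pooled groups overlapped between genotypes, and NICeCA 3 and wild type 4 were the low libraries of their genotype in both. The difference of the medians, antiviral minus GTPases, was 0.24, 0.20 and 0.19 in NICeCA 1, 2 and 3, against -0.25, -0.49 and -0.10 in wild type 1, 3 and 4. These did not overlap, with means of 0.21 ± 0.02 in NICeCA and -0.28 ± 0.20 in wild type (SD, n = 3 each). The difference is a description with no test, since the genes were chosen with results of these data known. The Oas genes differed most by genotype, with mean family medians of 0.41 ± 0.23 in NICeCA and -0.34 ± 0.28 in wild type. The Mx genes came next, at 0.33 ± 0.36 in NICeCA and -0.33 ± 0.58 in wild type. The Oas medians did not overlap between genotypes, while the Mx medians did. The Ifit genes were at 0.14 ± 0.34 in NICeCA and -0.04 ± 0.46 in wild type. In NICeCA 3 the Ifit median lay just below that of the GTPases, and in wild type 4 just above it.

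**Figure D3:**
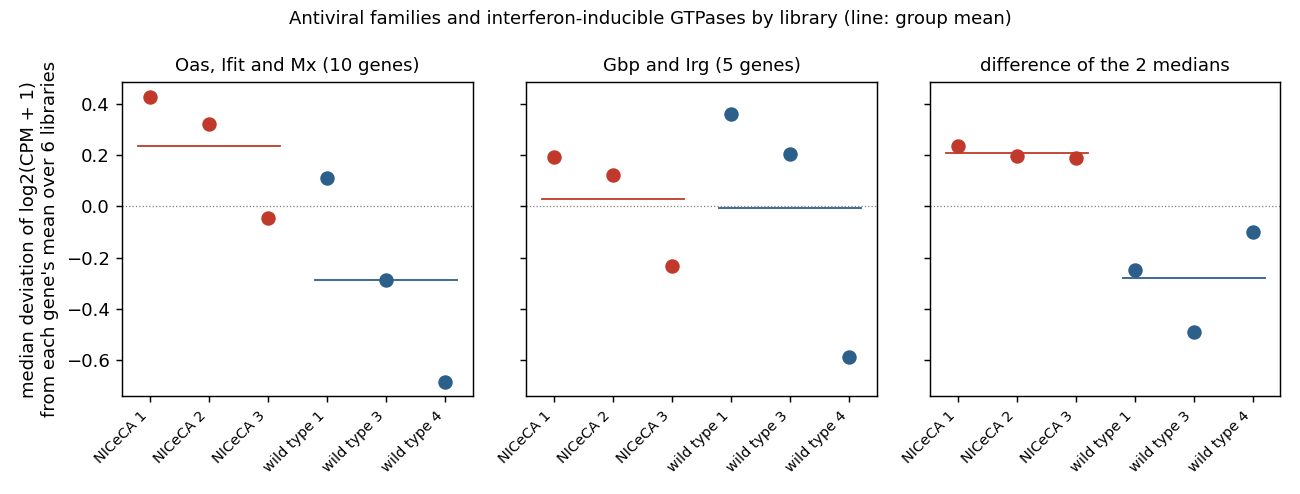
Median deviation of log2(CPM + 1) from each gene's mean, per library, for the Oas, Ifit and Mx genes, for the Gbp and Irg genes, and for the difference of the 2 medians, with NICeCA in red, wild type in blue and lines at the group means. The first and second panels overlap between genotypes, while the difference is higher in each NICeCA library than in each wild type library. Its sign depends on the centring of each gene on the 6 libraries. With a pseudocount of 5 the highest wild type value was 0.026.

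Among the transcription factors, Irf7, the factor that amplifies type I interferon production, stood apart from the rest. It was at 221, 256 and 172 CPM in NICeCA 1, 2 and 3, against 130, 158 and 84.4 CPM in wild type 1, 3 and 4. The groups did not overlap, with a log2 fold change of 0.80 ± 0.25 (edgeR adjusted p = 0.215, DESeq2 adjusted p = 0.0479). DESeq2 called Irf7 in 2 of the 6 sets that leave out a library. Stat2 averaged 145 ± 10.4 CPM in NICeCA and 114 ± 31.2 CPM in wild type. Its partner Irf9 averaged 117 ± 8.54 CPM in NICeCA and 117 ± 18.9 CPM in wild type, and Irf1, the factor that drives IFN-gamma responses, 593 ± 83.2 CPM in NICeCA and 601 ± 171 CPM in wild type (SD, n = 3 each). All 3 overlapped between genotypes, with log2 fold changes of 0.34 ± 0.20 for Stat2, 0.0016 ± 0.14 for Irf9 and -0.02 ± 0.22 for Irf1.

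The 4 members grouped here as RNA and DNA sensors, apart from the Oas and Ifit genes, each had a positive log2 fold change with all 6 libraries. Zbp1, which binds Z-form nucleic acid and can trigger necroptosis, was at 17.8, 19.8 and 18.6 CPM in NICeCA 1, 2 and 3, against 8.19, 12.4 and 6.13 CPM in wild type 1, 3 and 4. No library overlapped the other genotype, with a log2 fold change of 1.07 ± 0.25 (edgeR adjusted p = 0.171, DESeq2 adjusted p = 0.00567). Dhx58 (LGP2), a helper of the RIG-I-like receptors, averaged 36.5 ± 5.81 CPM in NICeCA and 26.6 ± 3.65 CPM in wild type. The receptors themselves overlapped between genotypes, Ifih1 (MDA5) at 74.7 ± 10.7 CPM in NICeCA and 59.8 ± 9.03 CPM in wild type, and Ddx58 (RIG-I) at 112 ± 11.5 CPM in NICeCA and 99.8 ± 19.7 CPM in wild type (SD, n = 3 each). Neither tool called these 3.

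Isg15, a ubiquitin-like protein that is attached to other proteins during the antiviral response, was at 79.3, 81.5 and 68.9 CPM in NICeCA 1, 2 and 3, against 65.6, 58.2 and 25.8 CPM in wild type 1, 3 and 4. The genotypes were separated by a narrow margin, and wild type 4 was far below the other wild type libraries. Without that library the log2 fold change was 0.30, against 0.62 ± 0.32 with all libraries. Usp18, which removes Isg15 and restrains interferon signalling, averaged 34.0 ± 3.52 CPM in NICeCA and 24.8 ± 5.17 CPM in wild type (SD, n = 3 each), without overlap. Neither tool called the pair.

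Of the 9 other effectors, Trim30a, a tripartite motif protein that restrains NF-kB signalling, was the member DESeq2 called. It was at 190.0, 203 and 201 CPM in NICeCA 1, 2 and 3, against 151, 152 and 123 CPM in wild type 1, 3 and 4. The difference was small and regular, with a log2 fold change of 0.48 ± 0.12 (edgeR adjusted p = 0.177, DESeq2 adjusted p = 0.0185), and related Trim30 copies lie beside it. The remaining 8 overlapped between genotypes. Rsad2 (viperin) and Cmpk2, which together supply and use the nucleotide from which viperin makes a chain terminator, lie 12580 bases apart on chromosome 12. Rsad2 was at 185, 220 and 127 CPM in NICeCA 1, 2 and 3, against 171, 199 and 86.6 CPM in wild type 1, 3 and 4. Cmpk2 followed the same order within each genotype, at 111, 131 and 96.9 CPM in NICeCA 1, 2 and 3, against 108, 116 and 53.6 CPM in wild type 1, 3 and 4.

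Bst2 (tetherin), which holds budding viruses at the cell surface, was the most abundant member per length, at 479 ± 57.9 RPKM (counts scaled by gene length and library total) in NICeCA and 416 ± 66.2 RPKM in wild type (SD, n = 3 each). Irf1 came next at 182 ± 24.0 RPKM in NICeCA and 173 ± 44.8 RPKM in wild type, followed by Ifit3, Iigp1 and Irf7, whose ranges overlap each other. The lowest tested members per length were Mx1, at 2.58 ± 0.82 RPKM in NICeCA and 0.97 ± 0.23 RPKM in wild type, and 9930111J21Rik1, at 5.18 ± 0.41 RPKM in NICeCA and 2.17 ± 0.067 RPKM in wild type. Ifi44 (log2 fold change 0.47 ± 0.36), Rtp4 (0.23 ± 0.17), Parp14 (0.22 ± 0.21) and Ifi35 (0.08 ± 0.15) were called by neither tool. Xaf1, which antagonises an inhibitor of apoptosis, had the lowest log2 fold change of the members, -0.17 ± 0.57, at 48.3, 111 and 41.0 CPM in NICeCA 1, 2 and 3, against 87.1, 112 and 26.3 CPM in wild type 1, 3 and 4.

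The members varied together between libraries of the same genotype. Wild type 4 was the lowest library for 30 of the 35 members (85.7%), against 17.1% of all genes tested. NICeCA 2 was the highest for 17 members, NICeCA 1 for 6, NICeCA 3 for Oas3, and a wild type library for 11. The median over the members was 0.39 without wild type 1, with 33 of 35 positive (49.1% of all genes). DESeq2 called 5 members higher without wild type 4 (4.63% of all genes), namely Oas2, Oas3, Zbp1, Trim30a and 9930111J21Rik1. It called 8 without wild type 1 (4.63% of all genes), 5 without wild type 3 (2.18%), 5 without NICeCA 1 (4.08%), 3 without NICeCA 2 (1.78%) and 4 without NICeCA 3 (0.999%). It called Oas2 and 9930111J21Rik1 in each of the 6 sets that leave out a library. Zbp1 was not called without NICeCA 2 or NICeCA 3, where its log2 fold change was 1.03 and 1.08, against 1.07 with all libraries. Trim30a was not called without NICeCA 2, NICeCA 3 or wild type 3, where it was 0.46, 0.47 and 0.53, against 0.48 with all libraries. DESeq2 kept Irf7 only in the sets without NICeCA 3 or wild type 3, and Mx1 only in those without NICeCA 3 or wild type 1. Over all 6 sets the log2 fold change ran from 0.58 to 1.01 for Irf7 and from 1.09 to 1.57 for Mx1. The Kupffer cell marker Clec4f was at 368, 323 and 48.7 CPM in NICeCA 1, 2 and 3, against 22.0, 36.9 and 418 CPM in wild type 1, 3 and 4. The part of Kupffer cells in the member values was not tested.

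**Figure D4:**
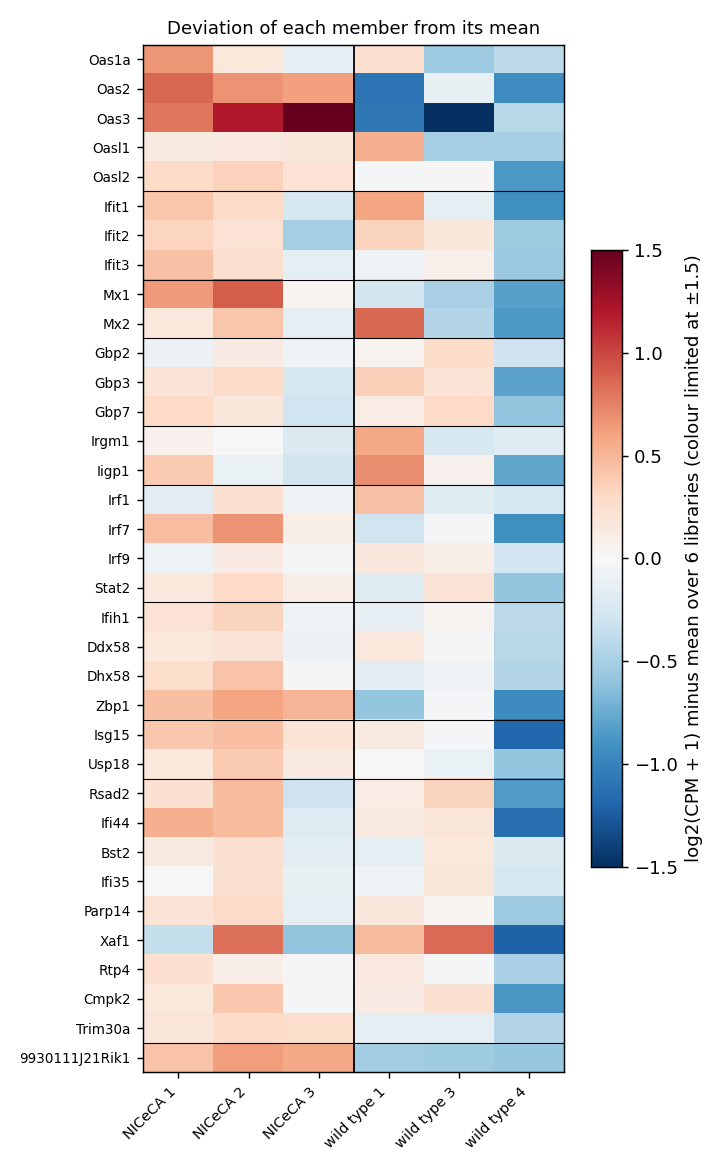
Deviation of each tested member's log2(CPM + 1) from its mean over 6 libraries, NICeCA left of the black line and wild type right of it, with red above and blue below the mean. The wild type 4 column is blue in every row, and 9930111J21Rik1 is evenly blue across wild type and evenly red across NICeCA.

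**Figure D5:**
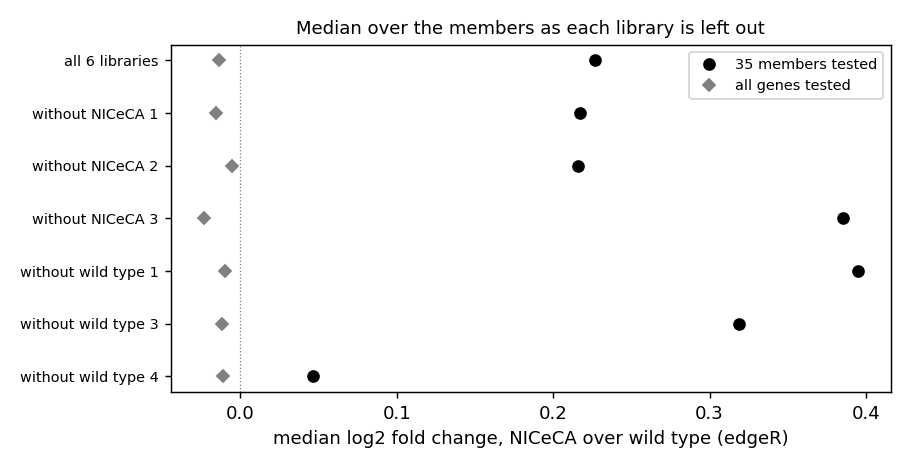
Median log2 fold change, NICeCA over wild type, of the 35 members (black) and of all genes tested (grey), with all libraries and without each in turn. The members' median lies between 0.22 and 0.39 except without wild type 4, where it is 0.047, while that of all genes stays near 0.

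Of 21 interferon genes listed, 6 had any count and only Ifng had enough reads to be tested. Ifng, the IFN-gamma gene of T and NK cells, was at 2.94, 6.86 and 14.6 CPM in NICeCA 1, 2 and 3, against 2.68, 0.57 and 0.69 CPM in wild type 1, 3 and 4. The groups did not overlap (log2 fold change 2.62 ± 0.78; edgeR adjusted p = 0.204, DESeq2 adjusted p = 0.00701). T and NK cell markers were likewise highest in NICeCA 3, and their part in the Ifng values was not tested. Ifnb1 was at 0.17 CPM in NICeCA and 0.29 CPM in wild type on average. Of the receptors Ifnar1, Ifnar2, Ifngr1, Ifngr2, Il10rb and Ifnlr1, edgeR called 0. At an unadjusted p under 0.05, 1 was higher (9.12% of all genes) and 0 were lower (7.38%). DESeq2 called 1 higher (3.71% of all genes), the IFN-lambda receptor Ifnlr1 at 1.48 ± 0.47. In Ifnlr1 the NICeCA libraries all lay above the wild type libraries (11.6% of all genes). In Ifngr2, at -0.21 ± 0.12, they all lay below (11.8%). Among Jak1, Jak2, Tyk2 and Stat3 neither tool called any gene and none had an unadjusted p under 0.05.

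In the other interferon-stimulated groups edgeR called 0 genes. The counts below stand beside 48.4% positive, 9.12% higher and 7.38% lower at an unadjusted p under 0.05, and 3.71% called higher by DESeq2 over all genes. Among the 38 other effectors 28 had a positive log2 fold change, with a median of 0.20, 6 were higher at an unadjusted p under 0.05, and DESeq2 called 4 higher. They included Samhd1, which depletes nucleotides, at 0.58 ± 0.14, and the helicase Ddx60 at 0.90 ± 0.23. Slfn2 and Slfn8, Schlafen genes that leukocytes also express, were at 1.45 ± 0.40 and 1.49 ± 0.39. All 6 tested Oas, Ifit and Ifi44 relatives outside the member list were positive, with a median of 0.45, 3 at an unadjusted p under 0.05, and DESeq2 called 2, Oas1g at 0.84 ± 0.21 and 2010002M12Rik (Ifit1bl2) at 2.19 ± 0.53. The 14 other interferon-inducible GTPases had a median of 0.23 with 10 positive, 0 at an unadjusted p under 0.05 and 0 called by DESeq2. Gbp9 was at 0.48 ± 0.27, with overlapping groups. Of the 4 ISG15 conjugation enzymes, the E1 enzyme Uba7 was at 0.34 ± 0.14, 1 was higher at an unadjusted p under 0.05, and DESeq2 called 0.

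Of the 9 tested genes of antigen presentation and the IFN-gamma chemokines, DESeq2 called 1, the class I transactivator Nlrc5, at 0.81 ± 0.24, and 3 were higher at an unadjusted p under 0.05. The chemokine Cxcl10 averaged 485 CPM in NICeCA and 556 CPM in wild type, and Cxcl9 178 CPM in NICeCA and 139 CPM in wild type. Tap2, Tapbp, Psmb8 and Psmb9 were listed at 0 in every library, but the deposited table places them on scaffolds outside the numbered chromosomes, where counts may be incomplete, so these zeros say nothing of their level. The 9 negative regulators had a median of 0.027, with 1 higher and 1 lower at an unadjusted p under 0.05 and 0 called by DESeq2. The phosphatase Ptpn6, which leukocytes also express, was at 1.58 ± 0.61 and Irf2bp1, a corepressor partner of Irf2, at -0.41 ± 0.14. Socs3, a feedback inhibitor of Jak kinases, was at 1664, 1906 and 1868 CPM in NICeCA 1, 2 and 3, against 2685, 2142 and 2275 CPM in wild type 1, 3 and 4. Its groups did not overlap, with a log2 fold change of -0.39 ± 0.17 that neither tool called. Of the 15 upstream sensors and adaptors 8 were positive, 1 was higher (Tlr9) and 1 lower (Mavs) at an unadjusted p under 0.05, and DESeq2 called 0. Of the 4 other Irf factors DESeq2 called 1, Irf4, a lymphocyte factor, at 2.10 ± 0.52. B cell markers summed to 24.5 to 31.4 CPM in NICeCA and 8.93 to 21.4 CPM in wild type, and their part in the Irf4 values was not tested.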

How the data were processed

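The authors deposited whole-number read counts per gene and RPKM values for the 6 libraries, per the file headers. The RPKM values equal the count scaled by the listed gene length and by the library total, with a largest relative gap of 5e-06 at 50 or more counts, and served only to compare levels between genes. Which aligner, counting tool, genome build and strand setting were used is not given in the sources used here. Of 51165 rows, 17861 were at 0 in every library.

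The test was edgeR 4.0.16 (R 4.3.3). The filterByExpr function, at a minimum count of 10, left 19795 genes, libraries were scaled by TMM, and genotypes were compared with glmQLFit and glmQLFTest on all 6 libraries. Benjamini-Hochberg adjustment covered all genes tested, with a threshold of 0.05. The SE was taken as the size of the log2 fold change over the root of its F value. DESeq2 1.42.0, limma voom 3.58.1, other scalings and filters, a robust prior, the replicate number as a block and leaving out each library were alternatives, and DESeq2 on sets without a library was added after seeing the data. Both count tools and voom were run on simulated data as a check of the code, and the outcome was not used to choose between their calls. Depth was 26254649 to 30034191 counts, so 1 CPM rests on about 26 to 30 counts.

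The members and all lists were chosen with earlier results of these data known. The rule for named genes took all 36 members, Hey1 and Notch1, and up to 4 genes of each pathway list with the smallest p. Gm14446, Gnb2l1, Psme2b, 9930111J21Rik2, Ifnb1, Cxcl9, Cxcl10, Tap2, Tapbp, Psmb8, Psmb9, Clec4f, Gbp6 and Gbp10 were named after their values were seen. Names missing from the table were matched through RefSeq synonyms. Promoters came from the RefSeq table of GRCm38.p6. One listed gene is not reported here.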

Additional observations from a re-analysis of the deposited data

How the results depend on the processing

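No member was called by edgeR as run for the report, with RLE or upper-quartile scaling, or in the sets without a library. One member, 9930111J21Rik1, was called higher by edgeR without a filter, with a mean CPM of at least 1 and with the robust prior (1 member each), and 7 were called by DESeq2 with or without independent filtering. Without a library DESeq2 called 3 to 8 members, fewest without NICeCA 2 (3) and NICeCA 3 (4). Over all genes edgeR called 5 higher and 4 lower, DESeq2 733 and 374, edgeR without a filter 51 and 60, and voom 3 and 2. Without a library edgeR called 0 to 9 genes higher and 0 to 5 lower. In the sets without a library the members' median, 0.23 with all, ran from 0.047 (without wild type 4) to 0.39 (without wild type 1 or NICeCA 3). With the mean in place of the median, antiviral minus GTPases differed between genotypes by 0.71, against 0.49. The difference was 0.39 with a pseudocount of 5, 0.40 with 9930111J21Rik1 added to the GTPases and 0.41 with other listed family genes added. It did not overlap between genotypes under any of the 14 alternatives run. These alternatives reuse the same libraries and most of the same chosen genes, so they give no independent support.

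With the replicate block, which compares only the pairs numbered 1 and 3, edgeR called 0 genes higher and 0 lower at 1596 unadjusted, and the members' median was 0.014 with 18 of 35 positive. The labels do not say that numbers pair libraries, and deviations of same-numbered libraries correlated at -0.21 and -0.25. Under the block the sign turned for Ifit1 (-0.14), Ifit2 (-0.35), Irf9 (-0.19), Mx2 (-0.20), Rsad2 (-0.27), Bst2 (-0.031), Ddx58 (-0.039), Gbp3 (-0.31), Gbp7 (-0.21), Ifi35 (-0.11), Parp14 (-0.068) and Cmpk2 (-0.12). Irf9 also turned with upper-quartile scaling (-0.0051) and without a filter (-0.0057), and Irf1 (0.0097) and Iigp1 (0.016) with voom. Leaving out a library turned the sign of 13 members, of which DESeq2 called Mx2 without wild type 1 and edgeR called none. Their log2 fold changes ran from -0.094 to 0.66 for Ifit1, -0.21 to 0.23 for Ifit2, -0.15 to 0.23 for Irf1, -0.13 to 0.085 for Irf9, -0.20 to 0.81 for Mx2, -0.067 to 0.46 for Rsad2, -0.19 to 0.11 for Gbp2, -0.19 to 0.31 for Gbp3, -0.13 to 0.27 for Gbp7, -0.30 to 0.17 for Irgm1, -0.38 to 0.33 for Iigp1, -0.022 to 0.20 for Ifi35 and -0.76 to 0.24 for Xaf1. The other 18 of 35 kept their sign under each alternative. The cause was not tested.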

Other observations

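Gbp6 and Gbp10, near-identical GTPase genes on chromosome 5, varied widely between libraries of the same genotype, and Gbp10 was lowest in the libraries where Gbp6 was highest of its genotype. Gbp10 was at 20.0, 40.1 and 1.36 CPM in NICeCA 1, 2 and 3, against 1.02, 20.3 and 6.85 CPM in wild type 1, 3 and 4. Gbp6 was at 50.2, 22.3 and 63.8 CPM in NICeCA 1, 2 and 3, against 90.1, 43.5 and 20.8 CPM in wild type 1, 3 and 4. Their sum varied less, at 70.2, 62.4 and 65.1 CPM in NICeCA 1, 2 and 3, against 91.1, 63.8 and 27.7 CPM in wild type 1, 3 and 4, and wild type 4 was again the lowest. How reads that match both genes were assigned is not given in the sources used here.

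Trim25, the ubiquitin ligase that activates RIG-I and that can also attach Isg15, was at 22.4, 0.068 and 18.9 CPM in NICeCA 1, 2 and 3, against 23.1, 19.7 and 17.2 CPM in wild type 1, 3 and 4. The deposited table places it on a scaffold outside the numbered chromosomes, and NICeCA 2 held 2 counts of it. Xaf1 also fell into a high and a low set of libraries in both genotypes, with NICeCA 2, wild type 1 and wild type 3 between 87.1 and 112 CPM and the other libraries between 26.3 and 48.3 CPM.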
